A study of Mus musculus with 11 samples.

Results

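The 10 genes described are regulators of the trophectoderm, the outer lineage of the blastocyst, and of the Hippo pathway, which is read out in that choice of lineage. They are Wwtr1, Yap1, Tead4, Lats1, Lats2, Amot, Tfap2a, Tfap2c, Cdx2 and Eomes. They were found by symbol in the annotation of the array, where each of the 10 had 1 row with a single symbol (Tfap2a and Tfap2c under the older names Tcfap2a and Tcfap2c). They stand among 21699 genes with a row of their own and 34760 rows in all.

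The RNA of 11 samples was hybridized to Affymetrix whole-transcript arrays, each from a pool of 40 late 2-cell mouse embryos of mixed 129/Sv and C57BL/6J background. Mutant embryos came from eggs lacking both Ring1 and Rnf2, labelled maternal Ring1-Rnf2-, and control embryos from eggs that lacked Ring1 but kept Rnf2, so the absence of maternal Ring1 was common to all 4 groups. RING1 and RNF2 are the ubiquitin ligase subunits of Polycomb repressive complex 1, which modifies histone H2A and represses genes. All eggs came from superovulated females of 5 to 10 weeks and were inseminated in vitro, with wild-type males of 10 to 16 weeks as sperm donors, so a paternal wild-type allele was present in every embryo. The groups were α-amanitin-treated mutant (2 pools), α-amanitin-treated control (3), untreated mutant (3) and untreated control (3). α-amanitin, which inhibits RNA polymerase II, was present at 24 µg/ml between 6 h and 35 h after fertilization, when these embryos were harvested. For untreated embryos no hour of harvest is stated in the sources used here. The submitters call the samples biological replicates, and precision is limited by how few arrays there are.

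In the mouse embryo the Hippo kinases LATS1 and LATS2 phosphorylate the coactivators YAP1 and WWTR1 (also called TAZ), which keeps them out of the nucleus. AMOT binds YAP1 and promotes LATS activity in the inner cells. In the outer, polarized cells YAP1 and WWTR1 enter the nucleus and act with the DNA-binding factor TEAD4, which is required for the trophectoderm regulators CDX2 and EOMES, and the AP-2 factors TFAP2A and TFAP2C act in the same lineage. The embryos measured here are from a stage well before the lineage forms, when maternal RNA is being cleared and the zygotic genome has been activated.

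The array readings of the targeted gene fit the labels. Rnf2 lay at log2 values of 5.18 to 5.24 in α-amanitin mutant and 6.89 to 7.31 in α-amanitin control pools, and without treatment at 5.00 to 5.17 in mutant and 6.59 to 6.84 in control pools. Ring1 lay at 4.35 to 4.79 in all groups. Of 11 late 2-cell markers, 6 were measured. Their mean per array was 5.18 to 5.42 in α-amanitin mutant and 4.96 to 5.25 in α-amanitin control pools. It was 6.91 to 7.44 in untreated mutant pools and 7.30 to 7.51 in untreated controls. Single markers went both ways, with 1 called higher and 2 lower in untreated mutant pools, beside 8.72% and 16.6% of all genes. With α-amanitin, 4 of the 6 were called lower in mutant and 5 in control embryos, beside 2.63% and 19.4% of all genes. Those called in mutant embryos were Zfp352 (-5.06, adjusted p = 6.09e-07), Tdpoz4 (-1.79, adjusted p = 0.000135), Tcstv3 (-1.82, adjusted p = 0.00352) and Obox6 (-1.09, adjusted p = 0.0118). Sp110, 1 of the 2 not called there, read 7.28 and 8.24 in α-amanitin mutant pools. In untreated mutant pools Sp110 read 8.78, 8.42 and 8.70 (difference -0.87, adjusted p = 0.091). Its difference in control embryos was -3.14 (adjusted p = 1.16e-06). Mean levels of the 12 oocyte markers were 7.90 to 8.24, 7.56 to 7.70, 7.74 to 7.91 and 7.20 to 7.37 in the same 4 groups. Mean levels of the 14 cumulus and granulosa markers stayed between 4.34 and 4.60 and those of 8 sperm markers between 4.30 and 4.56 on all arrays, near the array medians of 4.45 to 4.55. Single cumulus and granulosa markers did differ. Amhr2, the receptor of anti-Müllerian hormone, was lower in untreated mutant pools (-1.68, adjusted p = 8.54e-06), with a mean of 4.95 in untreated mutant and 6.63 in untreated control pools, and lower with α-amanitin in control embryos (-2.10, adjusted p = 3.21e-07). Ptgs2, a prostaglandin synthase, was higher in mutant pools without treatment (1.30, adjusted p = 9.6e-05) and with it (1.32, adjusted p = 0.000795). In untreated pools 8 of the 12 oocyte markers were called higher and 1 lower in mutants, beside 8.72% and 16.6% of all genes. The part of these markers in the results below was not tested. Between 11.9% and 12.9% of rows exceeded a log2 value of 6 in untreated mutant pools, against 15.1% to 16.1% in untreated control pools. In α-amanitin pools the share was 11.0% to 14.2% in mutants and 11.2% to 12.6% in controls.

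The values are deposited log2 expression values, relative to the other RNA on the same array, and a difference of 1 is a doubling. Levels are compared within a gene only, since different probe sets hybridize differently. The rank of a row by its mean over the 11 arrays gives the brightness of the probe set, not the abundance of the transcript. The Yap1 row was at the 98.4th percentile of all rows. The row of Tfap2c stood at the 84.7th, Lats1 at the 77.6th, Tead4 at the 70.1st and Wwtr1 at the 68.4th percentile. Tfap2a (64.6th), Eomes (63.3rd) and Lats2 (58.1st) followed, and Amot (50.7th) and Cdx2 (48.5th) lay at the array median, where a fall would have little room to show. Wwtr1 and Tead4 were also near the array medians in every group but untreated control, with group means of 4.49 to 4.70 and 4.61 to 4.72. In both control groups Tfap2a, Lats2 and Eomes were near them too. Their means were 4.54, 4.47 and 4.49 with α-amanitin and 4.30, 4.32 and 4.61 without, so a fall there had little room to show. No detection call came with the values, so no fold is given against those levels. In a pool, fewer cells with a transcript and less of it per cell cannot be told apart.

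**Figure D1:**
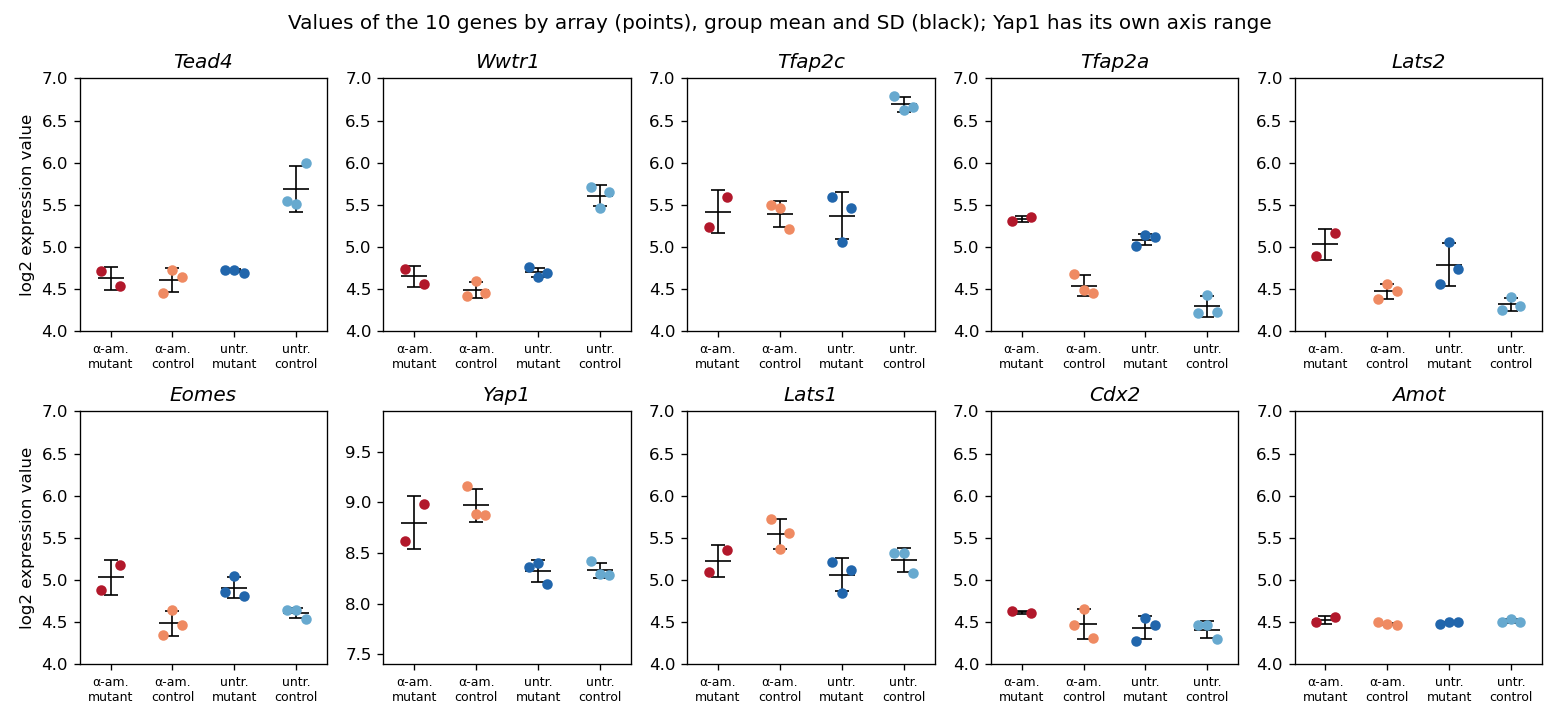
Log2 expression values (vertical axis) of the 10 genes in the 4 groups, 1 point per array, with group means and SD in black; Yap1 has its own axis range. Tead4, Wwtr1 and Tfap2c were highest in the 3 untreated control pools, and Tfap2a lay higher in every mutant pool than in any control pool.

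In untreated embryos Wwtr1 and Tead4 were lower in mutant pools, and Yap1 was not called. Wwtr1 encodes the coactivator TAZ. Its log2 values were 4.76, 4.65 and 4.70 in the untreated mutant pools and 5.71, 5.47 and 5.65 in the untreated control pools. The 2 groups did not overlap, and the difference was -0.91 ± 0.09 (SE of limma's fit over all 11 arrays), with an adjusted p of 5.51e-05. Tead4, the TEAD factor needed for trophectoderm, read 4.73, 4.73 and 4.70 in untreated mutant pools, against 5.55, 5.51 and 6.00 in untreated control pools. No mutant pool reached the lowest control pool. The Tead4 difference was -0.97 ± 0.13 (adjusted p = 0.0003).

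Yap1 differed little between the genotypes in untreated embryos. Its values were 8.37, 8.40 and 8.20 in mutant pools and 8.42, 8.29 and 8.29 in control pools. The groups overlapped, and the difference was -0.01 with a 95% interval of -0.27 to 0.25 (adjusted p = 0.976). Quantile normalization of the arrays changed that reading to 0.47 (adjusted p = 0.0013), higher in mutants, so the genotype difference of Yap1 depended on the scaling.

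The upstream kinases and their scaffold did not move together. Lats2, a kinase that restrains YAP1 and WWTR1, was higher in untreated mutant pools at 4.57, 5.07 and 4.74, against 4.26, 4.41 and 4.30 in controls. The difference was 0.47 ± 0.13 (adjusted p = 0.0227), and the groups did not overlap. The call was lost without untreated mutant replicate 2 (adjusted p = 0.079), untreated control replicate 1 (0.082) or untreated control replicate 3 (0.0673). Lats1, the paralogue, read 5.22, 4.84 and 5.12 in mutant pools and 5.32, 5.32 and 5.08 in control pools, with overlap between the groups. Its difference was -0.18, with an interval of -0.47 to 0.12, and did not pass (adjusted p = 0.448). Amot, the AMOT scaffold gene, stayed within 4.48 to 4.50 in mutant and 4.50 to 4.54 in control pools (difference -0.02, interval -0.16 to 0.13).

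The AP-2 genes went opposite ways. Tfap2c, which encodes an AP-2 factor of the early trophectoderm and the germ line, had values of 5.60, 5.06 and 5.46 in untreated mutant pools and 6.79, 6.63 and 6.66 in untreated control pools. It was the member with the largest difference in these embryos, at -1.32 ± 0.15, a fold of 2.50 lower (adjusted p = 9.3e-05). Tfap2a, its paralogue, was at 5.01, 5.14 and 5.11 in untreated mutant pools and at 4.22, 4.44 and 4.23 in untreated control pools. Every mutant pool exceeded every control pool, and the difference was 0.79 ± 0.09 (adjusted p = 0.000114).

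The trophectoderm factors themselves were not called in untreated embryos. Eomes, a T-box factor required for trophoblast, read 4.86, 5.05 and 4.81 in mutant pools and 4.65, 4.64 and 4.54 in control pools. The groups did not overlap, but the difference of 0.30 missed the threshold (adjusted p = 0.0836), and it passed after quantile normalization (0.0363). Cdx2, the homeobox factor that specifies the lineage, was at 4.28, 4.55 and 4.47 in mutant pools and 4.47, 4.47 and 4.30 in control pools, a difference of 0.02 with an interval of -0.22 to 0.26.

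In all, 2 of the 10 members were called higher in untreated mutant pools, and 8.72% of all 21699 genes were. Lower calls numbered 3 of 10, against 16.6% of all genes. The groups did not overlap for 6 of the 10 members and for 41.5% of all genes. The median difference was -0.01 for the members and 0.01 for all genes. Of all calls, 34.4% were higher in mutants, and 53.4% after quantile normalization.

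**Figure D2:**
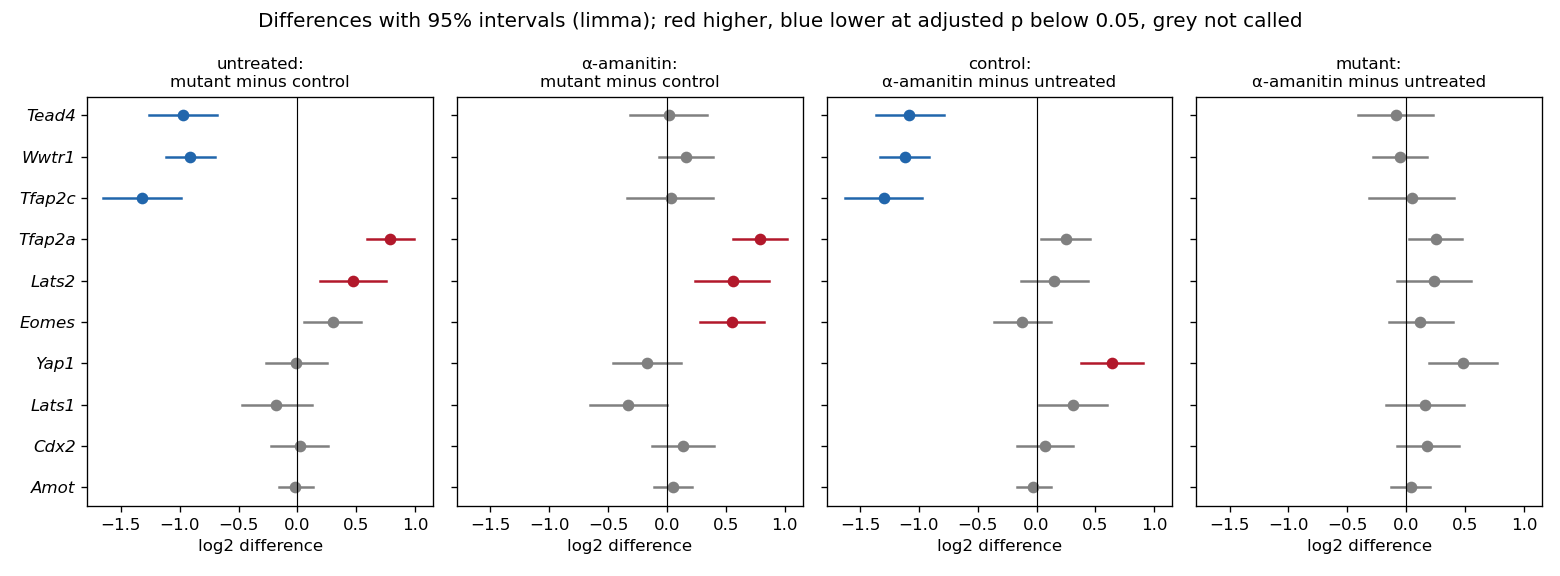
Log2 differences (horizontal axis) with 95% intervals for the 10 genes (rows) in the 4 comparisons of 2 groups; red marks higher and blue lower calls at an adjusted p below 0.05, and grey marks genes not called. Lower calls appear for Tead4, Wwtr1 and Tfap2c in both comparisons that involve the untreated control pools and for no gene in the other 2.

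The genotypes were also compared in embryos cultured with α-amanitin. Tfap2a was again higher in mutant pools, with values of 5.31 and 5.36 in α-amanitin mutant pools and 4.68, 4.50 and 4.45 in α-amanitin control pools. No pool of one group reached the other, and the difference was 0.79 ± 0.10 (adjusted p = 0.00101). Lats2 read 4.90 and 5.16 in mutant and 4.38, 4.57 and 4.48 in control pools under treatment (0.56 ± 0.14, adjusted p = 0.0348). The 2 groups did not overlap.

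Eomes was at 4.89 and 5.18 in α-amanitin mutant pools, against 4.34, 4.64 and 4.47 in α-amanitin control pools. Its difference was 0.55 ± 0.12 (adjusted p = 0.0187), and it too had no overlap. The calls for Lats2 and Eomes rested on single arrays: without α-amanitin mutant replicate 2 the adjusted p became 0.217 for Lats2 and 0.142 for Eomes. The Eomes call was also lost without α-amanitin control replicate 1 (0.0641) or 3 (0.0535), and the Lats2 call in 7 of 11 fits with 1 array left out, with adjusted p of up to 0.217.

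Wwtr1 read 4.74 and 4.56 in α-amanitin mutant pools, against 4.42, 4.60 and 4.45 in α-amanitin control pools, a difference of 0.16 that did not pass (interval -0.07 to 0.39). Tead4 read 4.72 and 4.53 in mutant pools and 4.46, 4.73 and 4.65 in control pools (0.02, interval -0.31 to 0.34). Tfap2c read 5.24 and 5.60 in mutant pools and 5.50, 5.46 and 5.22 in control pools (0.03, interval -0.34 to 0.39). All 3 pairs of groups overlapped. The differences for Cdx2 (0.14), Amot (0.05), Yap1 (-0.17) and Lats1 (-0.33) did not pass either, the last with an adjusted p of 0.263 and, after quantile normalization, 0.0378.

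Higher calls under treatment therefore numbered 3 of the 10 members, against 6.94% of all genes, and lower calls 0 of 10, against 4% of all genes. At an unadjusted p below 0.05 limma's fit also gave 0 lower. The groups of arrays did not overlap for 4 of 10 members and 33.3% of all genes. Of all calls 63.4% were higher in mutants, and 50% after quantile normalization.

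Pools with and without α-amanitin were then compared within each genotype, which asks which of the 10 transcripts differed with the inhibitor present from 6 h after fertilization. Because the hour of harvest of untreated embryos is not stated, a difference in hour cannot be told apart from the treatment. The α-amanitin comparison in control embryos shares the untreated control arrays with the untreated genotype comparison, so their values are set side by side without a test between them. In control embryos the Wwtr1 difference for α-amanitin minus untreated was -1.12 ± 0.09 (adjusted p = 4.03e-06), beside a genotype difference of -0.91. For Tead4 it was -1.08 ± 0.13 (adjusted p = 7.29e-05), beside -0.97. For Tfap2c it was -1.30 ± 0.15 (adjusted p = 4.56e-05), beside -1.32. In each of these genes all 3 α-amanitin control pools lay below all 3 untreated control pools.

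Yap1 went the other way. It read 9.16, 8.88 and 8.87 in α-amanitin control pools, against 8.42, 8.29 and 8.29 in untreated control pools, with no overlap. It was 0.64 ± 0.12 higher with treatment (adjusted p = 0.00158). Lats1 read 5.72, 5.37 and 5.56 with α-amanitin and 5.32, 5.32 and 5.08 without (0.31, adjusted p = 0.122, and 0.00165 after quantile normalization). The difference was 0.25 for Tfap2a (adjusted p = 0.0742, and 0.036 without untreated control replicate 2). It was 0.15 for Lats2, -0.12 for Eomes, 0.07 for Cdx2 and -0.03 for Amot, and none of these passed. Lower calls numbered 3 of 10 members, beside 19.4% of all genes, and higher calls 1 of 10, beside 14.2%. The groups did not overlap for 6 of 10 members and for 47.5% of all genes. Of all calls 42.3% were higher with treatment, and 56.8% after quantile normalization.

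In mutant embryos 0 of the 10 members were called in limma's fit between α-amanitin and untreated pools, beside 1.09% of all genes called higher and 2.63% called lower. At an unadjusted p below 0.05 in that fit, 2 were higher with treatment, Yap1 (0.48 ± 0.13, adjusted p = 0.0824) and Tfap2a (0.25 ± 0.10, adjusted p = 0.277), and 0 were lower. The Yap1 difference passed without α-amanitin mutant replicate 1 (adjusted p = 0.0288). Wwtr1 differed by -0.05 (interval -0.28 to 0.18), Tead4 by -0.09 (-0.41 to 0.23) and Tfap2c by 0.05 (-0.32 to 0.41). The pools did not overlap for 3 of 10 members, Cdx2, Yap1 and Tfap2a, and for 28.2% of all genes. Of all calls 29.3% were higher with treatment, and 44.7% after quantile normalization.

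The interaction, which is the treatment difference in mutant embryos minus that in control embryos, was called for 3 genes. It was 1.35 ± 0.22 for Tfap2c (adjusted p = 0.00191), 1.07 ± 0.14 for Wwtr1 (adjusted p = 0.000486) and 0.98 ± 0.20 for Tead4 (adjusted p = 0.00579). These 3 of the 10 were called higher, beside 13.6% of all genes, and 0 lower (0 at an unadjusted p below 0.05), beside 4.2%. In the mutant pools Wwtr1 and Tead4 were near the array median without treatment already, so a further fall had little room to show. Interaction values for the other 7 lay between -0.16 (Yap1) and 0.25 (Eomes). After quantile normalization the interaction of Yap1 was -0.61 (adjusted p = 0.00456). Of all calls 76.3% were higher, and 45.9% after quantile normalization.

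**Figure D3:**
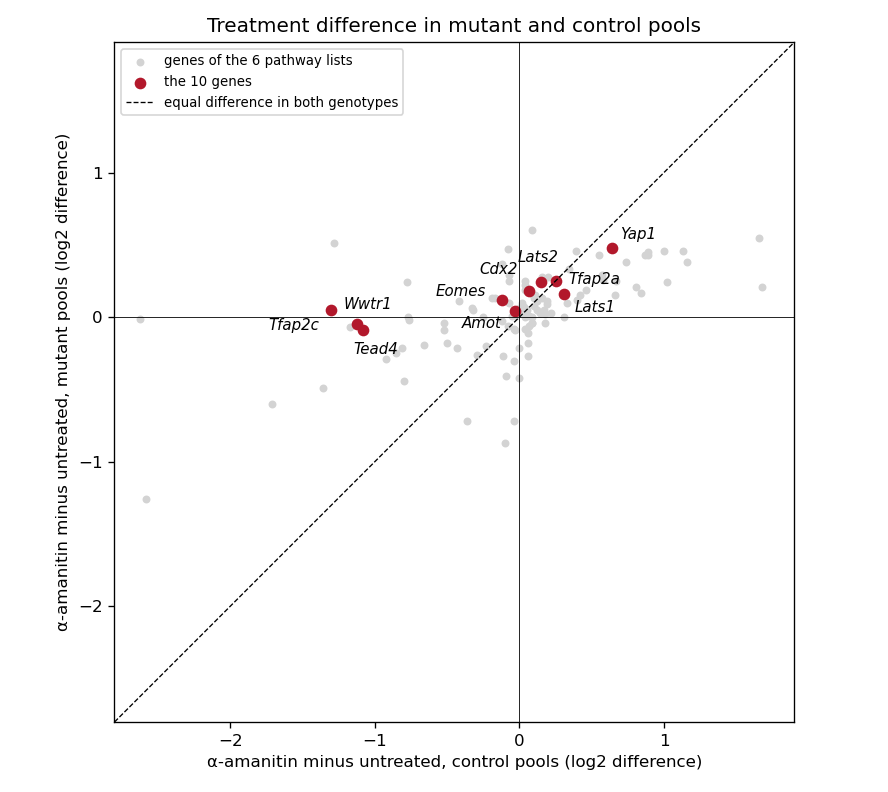
Log2 difference of α-amanitin minus untreated in control pools (horizontal axis) and in mutant pools (vertical axis) for the 10 genes (red) and the genes of 6 pathway lists (grey); the dashed line marks equal differences. Tfap2c, Wwtr1 and Tead4 lie left of the line, at -1.30, -1.12 and -1.08 for control pools and 0.05, -0.05 and -0.09 for mutant pools.

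The calls for Wwtr1, Tead4, Tfap2c and Tfap2a between the genotypes, and those of Wwtr1, Tead4 and Tfap2c in control treatment and interaction, passed in every alternative run, 18 for the comparisons of 2 groups and 17 for the interaction. The Wwtr1 genotype difference in untreated embryos ranged from -0.98 to -0.74 over these settings, that of Tead4 from -1.06 to -0.78 and that of Tfap2c from -1.43 to -1.02. The Tfap2a differences ranged from 0.75 to 0.86 without treatment and from 0.74 to 0.86 with it. The Yap1 call for treatment in control embryos also passed throughout, with differences of 0.55 to 0.95. The untreated genotype, control treatment and interaction comparisons share the untreated control pools. Their calls for Wwtr1, Tead4 and Tfap2c are therefore not separate results.

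The promoter windows of 3 members that were called are shown because their letters hold the TEAD motif GGAATG, and in 2 of them also the AP-2 motif GCCNNNGGC. The windows run from 250 bases before to 50 after a RefSeq transcript start in GRCm38.p6, on the strand of the gene, 5′ to 3′. Capitals mark the motif matches.
Wwtr1 (chr3:57575861-57576160, minus strand): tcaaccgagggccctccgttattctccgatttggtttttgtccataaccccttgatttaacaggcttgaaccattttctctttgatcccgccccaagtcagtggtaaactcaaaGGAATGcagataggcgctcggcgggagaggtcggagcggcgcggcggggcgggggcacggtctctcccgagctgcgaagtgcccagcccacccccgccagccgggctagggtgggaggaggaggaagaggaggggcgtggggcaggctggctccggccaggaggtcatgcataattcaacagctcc
Yap1 (chr9:8004547-8004846, minus strand): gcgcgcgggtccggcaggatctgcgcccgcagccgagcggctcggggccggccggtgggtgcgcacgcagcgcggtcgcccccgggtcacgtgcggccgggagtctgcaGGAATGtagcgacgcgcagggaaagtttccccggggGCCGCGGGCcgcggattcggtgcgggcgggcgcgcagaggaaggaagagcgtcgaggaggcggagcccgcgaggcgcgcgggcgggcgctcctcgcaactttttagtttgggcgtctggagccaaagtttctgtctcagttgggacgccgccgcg
Lats2 (chr14:57746074-57746373, minus strand): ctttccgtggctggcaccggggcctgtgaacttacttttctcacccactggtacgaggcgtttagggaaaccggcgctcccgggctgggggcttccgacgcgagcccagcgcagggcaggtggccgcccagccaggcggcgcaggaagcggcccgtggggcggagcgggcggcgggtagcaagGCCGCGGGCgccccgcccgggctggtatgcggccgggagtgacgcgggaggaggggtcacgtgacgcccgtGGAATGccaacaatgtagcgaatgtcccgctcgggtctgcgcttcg
The first of 2 windows of Lats2 and of Wwtr1 is shown. RefSeq's table held 11 windows for 8 of the 10 members, and Tead4 and Tfap2c are named only. Searching both strands, a TEAD match was found in 3 members and an AP-2 match in 3 (Yap1, Lats2 and Cdx2), while 14.7% of 32851 windows in the table held the TEAD motif and 16.6% the AP-2 motif. The counts are of genes with up to 2 windows each and the shares are of single windows, so they are unlike measures. Eomes, Lats1, Tfap2a and Amot had neither in their windows. The windows held 20 CG dinucleotides in Wwtr1, 49 in Yap1 and 37 in Lats2, with a median of 7 and an upper quartile of 20 over all windows. The first window of Tfap2a held 11, that of Eomes 10 and that of Cdx2 18. A match of letters describes the sequence only.

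A further 6 sets of pathway genes give the setting of the 10. Of 27 Hippo kinases and regulators, 1 was called higher and 10 lower in untreated mutant pools, with a median of -0.22, beside 8.72% higher, 16.6% lower and a median of 0.01 for all genes. Limd1, a LIM protein that binds LATS kinases, was lower (-1.28 ± 0.12, adjusted p = 2.98e-05), and Mob1a, the LATS coactivator, was lower (-1.21 ± 0.14, adjusted p = 0.000134). Strn3, a scaffold of the striatin family, was lower too (-1.01 ± 0.09, adjusted p = 2.1e-05). The split was 4 higher and 7 lower after quantile normalization, with a median of 0.02, so the direction of the set depended on the scaling, while these 3 genes were lower in every alternative run.

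With α-amanitin the 27 Hippo genes gave 1 higher and 4 lower calls in mutant pools (6.94% and 4% of all genes), led by Limd1 (-1.40 ± 0.13, adjusted p = 0.000152). Limd1 read 5.46 and 5.87 in α-amanitin mutant pools and 7.17, 7.03 and 7.0 in α-amanitin control pools. The kinase Stk3, an MST kinase, was lower (-0.69 ± 0.13, adjusted p = 0.00908), a call lost without α-amanitin mutant replicate 1 (adjusted p = 0.0691). After quantile normalization 1 was higher and 8 were lower. In control embryos 7 were higher and 8 lower with treatment (11 and 5 after quantile normalization), beside 14.2% and 19.4% of all genes, and Ajuba, another LIM protein that binds LATS kinases, was lower (-1.71 ± 0.12, adjusted p = 1.45e-06). Ajuba read 4.21, 4.39 and 4.28 in α-amanitin control pools, against 5.99, 6.06 and 5.94 in untreated control pools. In mutant embryos limma called 0 higher and 1 lower with treatment (3 and 3 at an unadjusted p below 0.05), beside 1.09% and 2.63% of all genes. The lower one was Ajuba, at -0.60 (adjusted p = 0.0429). That call passed in 4 of 18 alternatives and was lost in 10 of the 11 fits with 1 array left out.

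Of 7 TEAD factors and cofactors, 2 were higher and none lower in untreated mutant pools, beside 8.72% and 16.6% of all genes: Tead2 (0.87 ± 0.14, adjusted p = 0.000837) and Tead3 (0.58 ± 0.12, adjusted p = 0.00616). Tead2 read 5.49, 5.73 and 5.73 in untreated mutant pools and 4.71, 5.08 and 4.56 in untreated control pools, the opposite direction to Tead4. With α-amanitin, Tead2 (0.84) and Tead1 (0.41) were higher, the Tead2 call was lost without α-amanitin mutant replicate 2 (adjusted p = 0.0559), and the Tead1 call passed in 7 of 18 alternatives (0.219 without the same pool). For treatment limma called 0 of the 7 in either genotype, and at an unadjusted p below 0.05 it gave 1 higher in each. Of all genes 14.2% were called higher and 19.4% lower in control embryos, and 1.09% and 2.63% in mutant embryos. After quantile normalization 3 were higher in control embryos. Of 3 further AP-2 genes, Tfap2e was higher in untreated mutant pools (0.52, adjusted p = 0.0323), a call lost on leaving out any 1 untreated pool (adjusted p up to 0.116). In control embryos Tfap2e (0.89) and Tfap2b (0.42) were higher with α-amanitin, and the Tfap2b call was lost without α-amanitin control replicate 1 (0.0847) or untreated control replicate 1 (0.0907).

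Of 19 YAP and TEAD target genes, 3 were called higher and 1 lower in untreated mutant pools (5 and 1 after quantile normalization), beside 8.72% and 16.6% of all genes. Ccn2 (0.55 ± 0.09, adjusted p = 0.0012) and Ccn1 (0.45 ± 0.10, adjusted p = 0.00777), secreted matrix proteins often used as readouts of YAP1, were among the higher ones, with Arhgef17 (0.40). Means of Ccn2, Ccn1 and Arhgef17 were 5.14, 5.11 and 4.95 in untreated mutant pools. In untreated control pools they were 4.59, 4.66 and 4.55, near the array medians of 4.45 to 4.55. Gadd45a, a stress-response gene, was lower (-1.0 ± 0.11, adjusted p = 6.73e-05). With α-amanitin, 2 were higher and 3 lower in mutants, led by Tgfb2 (-1.36), beside 6.94% and 4% of all genes. In control embryos 3 were higher and 1 lower with α-amanitin, beside 14.2% and 19.4% of all genes, and the lower one was Gadd45a (-2.58). In mutant embryos Ccn2 (-0.72) and Gadd45a (-1.26) were lower with α-amanitin, and 2.63% of all genes were called lower.

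Of 26 trophoblast regulators and markers, 5 were higher and 3 lower in untreated mutant pools (9 and 3 after quantile normalization), beside 8.72% and 16.6% of all genes. Plac1, a placental gene, was 2.16 ± 0.13 higher (adjusted p = 5.83e-06), at 6.58, 6.24 and 6.61 in mutant pools and 4.20, 4.34 and 4.41 in control pools. Krt8, a keratin of the trophectoderm, was 1.23 ± 0.16 higher, and Dab2, an endocytic adaptor, 1.09 ± 0.10 higher, while Esrrb, an orphan nuclear receptor, was lower (-0.78 ± 0.08). With α-amanitin Plac1 (2.67 ± 0.14, adjusted p = 7.72e-06) and Krt8 (0.90 ± 0.18, adjusted p = 0.00951) were higher in mutants. In limma's fit 0 were lower (1 at an unadjusted p below 0.05), and 6.94% of all genes were higher and 4% lower. The Krt8 call was lost without α-amanitin mutant replicate 2 (adjusted p = 0.0828). In control embryos 1 rose and 5 fell with treatment (3 and 4 after quantile normalization), beside 14.2% and 19.4% of all genes, and Dab2 rose by 1.68.

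Of 26 polarity and junction genes, 24 were measured, and limma called 0 higher and 7 lower in untreated mutant pools (1 and 9 at an unadjusted p below 0.05), beside 8.72% and 16.6% of all genes. Rhoa, a small GTPase, was lower (-0.84 ± 0.14, adjusted p = 0.00105), and the split became 6 higher and 4 lower after quantile normalization. F11r, which encodes the junction protein JAM-A, was lower in untreated mutants (-0.65 ± 0.11), a call lost after quantile normalization (-0.25, adjusted p = 0.224). Under α-amanitin it was higher by 1.96 ± 0.13 (adjusted p = 2.21e-05), with 6.22 and 6.13 in mutant pools and 4.12, 4.48 and 4.05 in control pools. The α-amanitin difference of F11r in control embryos was -2.62, and its interaction was 2.61 (adjusted p = 5.12e-05).

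**Figure D4:**
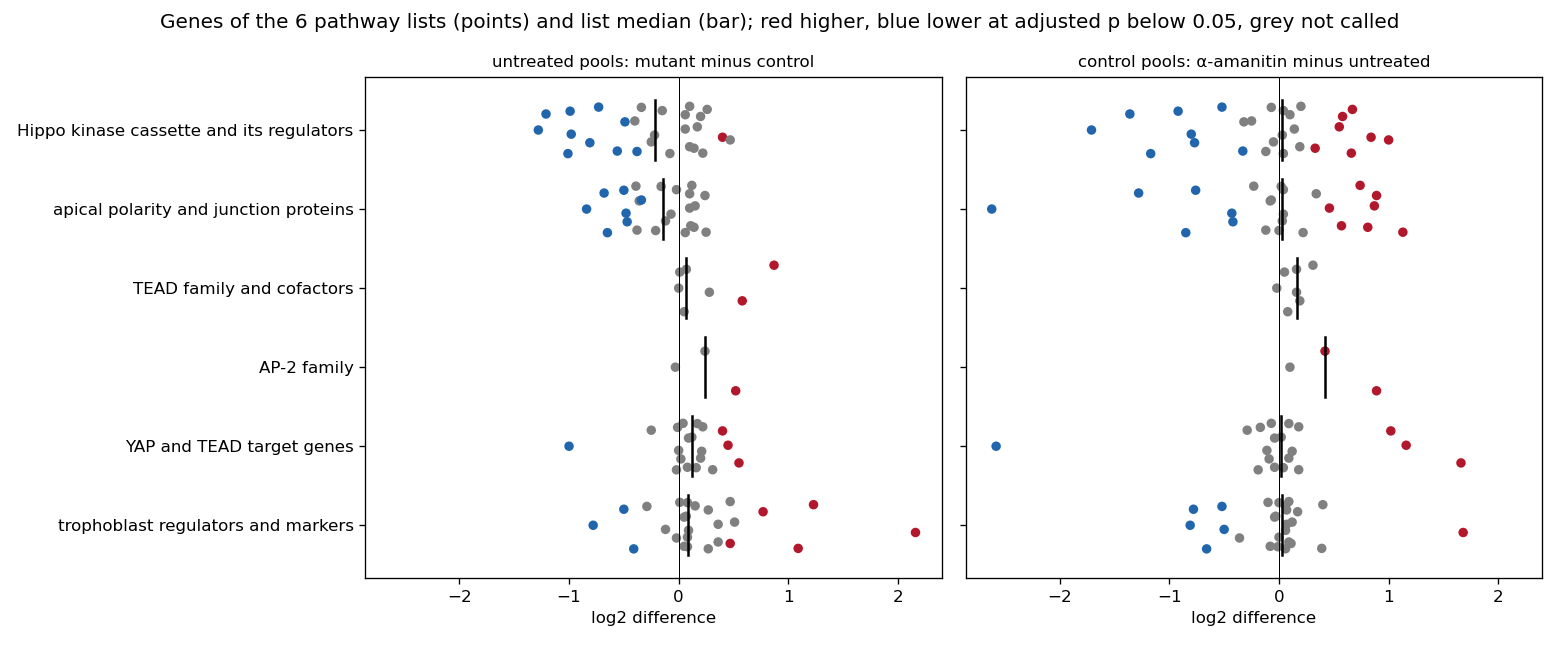
Log2 differences (horizontal axis) of single genes (points) in 6 pathway lists (rows), for mutant minus control without treatment (left) and α-amanitin minus untreated in control pools (right); bars mark list medians, and red and blue mark genes called higher and lower. The Hippo list holds 1 red and 10 blue points at left and 7 red and 8 blue points at right.

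Other genes, with clone names left out, were ranked by likeness to each called member. The measure was the root mean square difference of the mean-centred log2 values over the 11 arrays. Diablo was closest to Tfap2c (0.079), Dnph1 to Wwtr1 (0.078) and Zbtb8a to Tead4 (0.087). Mysm1 and Trim33 followed for Tfap2c, Yeats2 and Mark3 for Wwtr1, and Klrg2 and Arf4 for Tead4. Slc15a1 was closest to Tfap2a (0.091), followed by Fgl1 and Eif2ak4. For Lats2 the nearest were Hunk (0.086), Pax9 and Zdbf2, for Eomes Cxxc1 (0.076), Spata13 and Slc22a15, and for Yap1 Rnps1 (0.083), Myo1c and Atxn2l. The centred values of the members themselves spread with a root mean square of 0.601 for Tfap2c, 0.46 for Wwtr1, 0.481 for Tead4, 0.408 for Tfap2a, 0.294 for Lats2, 0.239 for Eomes and 0.317 for Yap1.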

How the data were processed

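RNA of 11 pools of embryos was amplified and hybridized to whole-transcript arrays, 1 pool per array. The authors deposited log2 expression values, which range from 1.11 to 12.85. R 2.10.0 and affy were used, per the submitters' processing notes, while the sources used here do not state the background correction, the normalization or the genome build. Symbols came from the platform annotation and were updated through Entrez identifiers (34760 rows: 23383 with 1 symbol, 1229 with several, 10148 with none). The row with the highest mean stood for a gene.

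Here limma 3.58.1 was run on them in R 4.3.3 (1 mean per group over all 11 arrays, eBayes, 7 residual and 3.59 prior degrees of freedom), and p-values were 2-sided, adjusted by the Benjamini-Hochberg method over all 34760 rows, with calls below 0.05. An exact permutation test over 3 against 3 or 3 against 2 arrays cannot go below p = 0.1. The members and the gene lists were chosen with earlier results of these data known, and the alternatives applied to the lists were chosen after seeing the data. Named genes are the 10 members, up to 4 genes per list and comparison past the threshold with no overlap between groups (smallest adjusted p first), and 3 genes (clone names left out) most like each called member. Per-array values of list genes beyond the rule were printed for a few of these. A gene that the rule would name is not reported here.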

Additional observations from a re-analysis of the deposited data

Results flagged for a closer look

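The treatment difference of 3 of the 10 members differed between the genotypes by the interaction term of limma's fit. These 3 were called higher, beside 13.6% of all genes, and 4.2% of all genes were called lower. The interaction was 1.35 for Tfap2c, 1.07 for Wwtr1 and 0.98 for Tead4 on the log2 scale. It is α-amanitin minus untreated in mutant minus the same in control embryos. In each of these genes the α-amanitin control pools lay below the untreated control pools, and the α-amanitin mutant pools overlapped the untreated mutant pools. Wwtr1 and Tead4 were near the array median in the untreated mutant pools already, so a further fall had little room to show. No group of arrays was large enough to look for single arrays that stand apart.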

How the results depend on the processing

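Under the alternatives run (quantile normalization, median centring, only the rows brighter than the median row, only the groups compared, the replicate number as a block, array weights, the mean of all rows of a gene and leaving out each array in turn), 837 of 885 values of the members kept their direction and side of the threshold. The 5 members called between untreated genotypes ranged from 4 to 5 with 1 array left out. The 3 called with α-amanitin became 1 with only the groups compared and 1 to 3 with 1 array left out. After quantile normalization the counts were 7 and 4 for these comparisons, 5 for treatment in control embryos and 4 for the interaction. Of the others, the 4 called in control embryos ranged from 4 to 5 and the 3 of the interaction stayed at 3 with 1 array left out. The 0 called in mutant embryos became 1 after quantile normalization, 1 over the brighter rows and 0 to 1 with 1 array left out. Among the groups of 3 arrays, deviations from the group means correlated at 0.029 to 0.154 for all 9 pairs with the same replicate number. Of pairs with different numbers, 14 of 18 were below 0. Deviations sum to 0 within a group, so values above 0 for one kind of pair bring lower values for the other. Against the 2 α-amanitin mutant arrays, whose deviations mirror each other, the 6 pairs with the same number gave -0.223 to -0.019. The labels do not say that equal replicate numbers share a batch, so the numbers were not taken as pairs and the block was run as an alternative. The replicate block gave 6, 3, 4, 0 and 3 calls in the 5 comparisons, and the call it added was that of Eomes in untreated embryos (0.30, adjusted p = 0.0414). Over all genes, quantile normalization gave 3170 higher and 2766 lower calls between untreated genotypes, against 1893 and 3602 on the deposited values. It gave 1708 and 1710, against 1506 and 868, with α-amanitin, 4674 and 3550, against 3084 and 4201, for treatment in control embryos, 681 and 844, against 236 and 570, in mutant embryos, and 2208 and 2600, against 2942 and 912, for the interaction.

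Signs turned in 23 values. After quantile normalization these were Cdx2 (-0.01) and Yap1 (0.47) between untreated genotypes, and Tead4 (-0.02) and Tfap2c (-0.10) between genotypes with α-amanitin. After median centring they were Cdx2 (-0.01) without and Tead4 (-0.01) with α-amanitin. The cause was not tested. Over the fits with 1 array left out, uncalled values crossed 0 for Cdx2 (-0.04 to 0.10) and Yap1 (-0.05 to 0.05) between untreated genotypes, and for Tead4 (-0.08 to 0.11), Yap1 (-0.36 to 0.01) and Tfap2c (-0.15 to 0.20) between genotypes with α-amanitin. The same held for treatment of Cdx2 in control embryos (-0.02 to 0.15), and of Eomes (-0.02 to 0.27), Wwtr1 (-0.14 to 0.04) and Tfap2c (-0.13 to 0.22) in mutant embryos. It held too for the interactions of Yap1 (-0.35 to 0.02) and Lats2 (-0.05 to 0.22), and for that of Tfap2a (-0.07 to 0.07), which was 0.00 in the full fit. Signal near the array median limits what can be seen for Cdx2 and Amot in all groups, and for Wwtr1 and Tead4 in all but untreated control. The same limit holds for Tfap2a, Lats2 and Eomes in both control groups. Where a fit left 1 α-amanitin mutant pool, that pool was assumed to vary like the other groups.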

Other observations

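In 34.7% of the 34760 rows at least 2 arrays held one exactly equal deposited value, and in 8.2% at least 4 did. Among the 10 genes, Cdx2 and Amot had 4 arrays at one value, Tead4 had 3, and Lats1 and Lats2 had 2. No 2 arrays were equal for Eomes, Yap1, Wwtr1, Tfap2a or Tfap2c. The step of the authors' processing that gives equal values was not tested.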
